A study of Mus musculus with 8 samples.

Results

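The 10 genes described here encode the 5 subunits of the transcription factor NF-kB (Nfkb1, Nfkb2, Rel, Rela and Relb) and 5 of its inhibitors and regulators (Nfkbia, Nfkbib, Nfkbie, Tnfaip3 and Bcl3). They were taken by name from a table of 39527 mouse genes, and all 10 were among the 11483 genes expressed well enough to be tested. RNA had been sequenced from group 2 innate lymphoid cells (ILC2s), tissue lymphocytes that make type 2 cytokines and carry no rearranged antigen receptor, sorted from epididymal visceral fat. All mice were male C57BL/6 wild types aged 14 weeks. A normal diet (libraries N1 to N4) or a high-fat diet (H1 to H4) had been given for 8 weeks, beginning at week 6, and the comparison asks how the diet altered the transcripts of these cells. Whether each library was 1 animal or a pool is not stated, so the p-values below reflect the spread between libraries, part of which could be technical.

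NF-kB is a dimer of 2 subunits held in the cytoplasm by IkB proteins. Signals from cytokine and costimulatory receptors activate IkB kinases, the IkB protein is degraded, and the dimer enters the nucleus, where it binds short kB sites in DNA. In the canonical route the dimers hold Rela or Rel with the processed product of Nfkb1, and in the slower, noncanonical route Relb pairs with the product of Nfkb2. Many of the genes it switches on encode its own subunits and inhibitors, which makes the system a feedback loop. In ILC2s, alarmins such as interleukin-33 act through this pathway.

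The promoters of these genes were searched for such sites. Windows from RefSeq (build GRCm38.p6), running from 250 bases before to 50 bases after a transcript start, were found for 8 of the 10 genes, 11 windows in all, and none was given for Nfkb1 and Relb. The kB consensus was searched on both strands. It occurred in 8 of the 11 windows (72.7%), against 4.51% of all 32851 promoter windows and 5.13% of the 10566 windows of tested genes. Those 8 windows belonged to 6 genes (Bcl3, Nfkb2, Nfkbia, Nfkbie, Rel and Tnfaip3), and windows 2 and 3 of Nfkb2 overlap and share 1 match. The windows of Rela and Nfkbib held no match. A looser form, GGGNNNNNCC, which contains the consensus, was in 90.9% of the members' windows, in 50.8% of all windows and in 67% of those of tested genes. A match describes letters only, and binding was not measured. The 250 bases before the start are shown for 4 genes whose values differ below: Nfkb2, with the lowest adjusted p of the 10 genes, Rel and Nfkbia, which also carry the site, and Rela, which carries none. Each is read 5′ to 3′ on the strand of the gene, with bases of consensus matches in capitals.
Nfkb2, chr19:46304487-46304736, plus strand: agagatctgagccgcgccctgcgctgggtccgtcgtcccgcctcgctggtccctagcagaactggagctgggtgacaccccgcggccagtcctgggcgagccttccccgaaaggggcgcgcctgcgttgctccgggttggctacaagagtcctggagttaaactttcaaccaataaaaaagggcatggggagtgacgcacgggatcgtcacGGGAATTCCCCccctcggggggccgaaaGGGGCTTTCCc
Rel, chr11:23770970-23771219, minus strand: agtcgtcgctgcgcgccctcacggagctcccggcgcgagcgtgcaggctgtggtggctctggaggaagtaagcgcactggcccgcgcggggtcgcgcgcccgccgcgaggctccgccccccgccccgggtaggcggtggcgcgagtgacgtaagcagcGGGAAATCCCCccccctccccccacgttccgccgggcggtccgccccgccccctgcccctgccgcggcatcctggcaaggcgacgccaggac
Nfkbia, chr12:55492648-55492897, minus strand: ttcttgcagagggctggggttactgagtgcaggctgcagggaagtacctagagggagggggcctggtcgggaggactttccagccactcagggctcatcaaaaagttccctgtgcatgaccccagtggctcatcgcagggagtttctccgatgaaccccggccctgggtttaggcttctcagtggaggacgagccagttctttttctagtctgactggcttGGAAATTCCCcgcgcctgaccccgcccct
Rela, chr19:5637291-5637540, plus strand: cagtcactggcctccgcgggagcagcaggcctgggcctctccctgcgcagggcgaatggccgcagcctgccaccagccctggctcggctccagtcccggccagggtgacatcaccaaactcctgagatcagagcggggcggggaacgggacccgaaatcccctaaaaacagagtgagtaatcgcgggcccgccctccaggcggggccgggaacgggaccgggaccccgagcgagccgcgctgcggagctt
In the Nfkb2 stretch the matches begin 39, 38 and 11 bases before the start, and the first 2 overlap. In Rel an overlapping pair begins 92 and 91 bases before the start, and in Nfkbia a single match begins 29 bases before it.

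**Figure D1:**
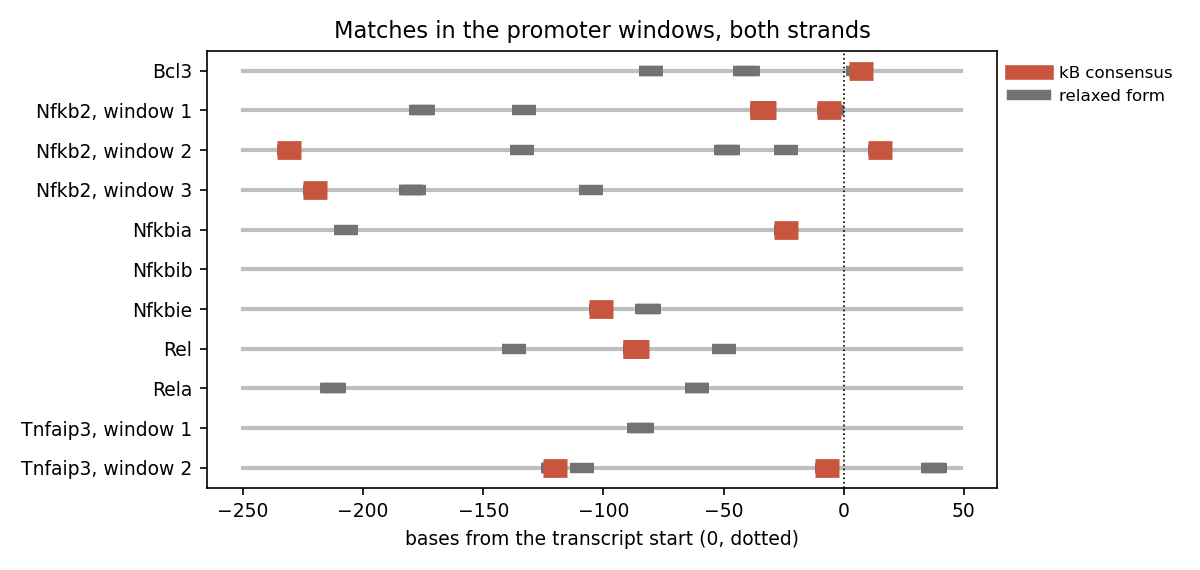
Positions of kB consensus matches (red) and of the looser form (grey) in each of the 11 promoter windows, as bases from the transcript start, with both strands combined. Rela, Nfkbib and the first window of Tnfaip3 have no red mark, and Nfkbib has no mark at all.

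On the high-fat diet 3 of the 5 subunit transcripts, Nfkb1, Nfkb2 and Relb, fell, to between 0.591 and 0.637 times their normal-diet mean. Rela, a strong activating subunit, had means of 62.8 and 62.7 FPKM, and none of the inhibitors passed the test. The test was limma's on log2(FPKM + 1) with Benjamini-Hochberg adjustment over all 11483 tested genes, where FPKM is the number of fragments divided by gene length and by library size. Of the 10 genes 3 were called lower, 0 higher and 7 neither, while over all tested genes 1.88% were called lower and 0.975% higher. At an unadjusted limma p under 0.05 the members numbered 7 lower and 0 higher, against 11.0% and 7.18% of tested genes. On reads recovered from the table, fitted with limma-voom, 3 were called lower and 0 higher, against 2.26% and 6.25% of the 15756 genes in that fit. Libraries of the 2 diets did not overlap, with the high-fat ones lower, in 5 of the 10 genes, against 6.76% of tested genes. They were higher without overlap in 0 of the 10, against 4.31%. The median log2 fold change, high-fat minus normal, was -0.44 over the 10 genes and -0.02 over all tested genes.

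That background depended on level. In the group of 10, 9 genes averaged 50 FPKM or more, a bound chosen after seeing the data, and the 1859 tested genes above it had a median of -0.16, with 4.95% called lower and 15.4% lower without overlap. Quantile normalization moved that median to -0.00 and recovered reads moved it to 0.00. In the fit of recovered reads, however, the median over all 15756 genes was 0.17, so the genes at 50 FPKM or more still lay below their background. Estimates on recovered reads given below are on that shifted scale. In bulk RNA of this kind, fewer cells expressing a gene and less RNA per cell cannot be told apart.

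**Figure D2:**
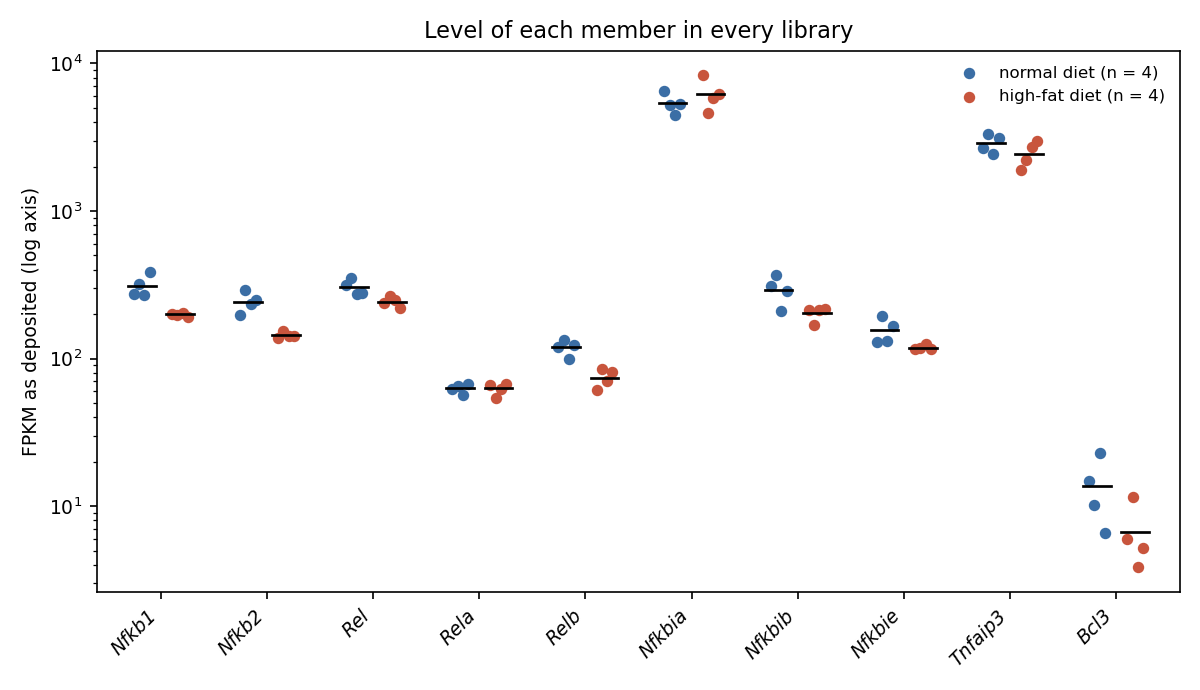
FPKM of the 10 genes (log axis) in each of the 4 normal-diet (blue) and 4 high-fat (red) libraries, with a black line at each mean. The red points lie wholly below the blue for Nfkb1, Nfkb2, Rel, Relb and Nfkbie, and the 2 colours mix for the other 5 genes.

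Nfkb1 (ENSMUSG00000028163, chromosome 3, 135584655 to 135691547, mm10) encodes p105, which is processed to the DNA-binding p50 and also acts as an inhibitor in its full form. Its levels were 274, 320, 271 and 385 FPKM in N1 to N4 and 201, 198, 204 and 193 FPKM in H1 to H4. Every high-fat library was below every normal-diet one, and the high-fat libraries lay closer together (coefficient of variation 2.41%, against 17.0%). The mean fell from 313 ± 53.0 to 199.0 ± 4.80 FPKM (SD, n = 4 each), a log2 fold change of -0.63 (standard error 0.15, limma adjusted p = 0.0297). The deposited values carry a multiplier, unrelated to the gene, that repeats down the table and differs between libraries. With it divided out the means were 308 ± 26.8 and 206 ± 18.4 FPKM, so that the spreads came closer while the diets still did not overlap.

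Nfkb2 (ENSMUSG00000025225, chromosome 19, 46304320 to 46312385) encodes p100, which restrains Relb until its processing to p52 in the noncanonical route. It measured 198, 293, 233 and 248 FPKM in N1 to N4 and 138, 154, 141 and 142 FPKM in H1 to H4. Again no libraries overlapped, and N1 was the normal-diet library closest to the high-fat ones. The mean fell from 243 ± 39.5 to 144 ± 6.93 FPKM (limma adjusted p = 0.0151), with a log2 fold change of -0.74 and a standard error of 0.15.

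Relb (ENSMUSG00000002983, chromosome 7, 19606217 to 19629438) encodes the subunit that partners p52. Its values were 120, 134, 98.6 and 123 FPKM in N1 to N4 and 61.0, 84.6, 70.8 and 81.1 FPKM in H1 to H4. N3 was the lowest normal-diet library, still above H2, the highest on the high-fat diet. The mean fell from 119 ± 14.7 to 74.4 ± 10.7 FPKM (limma adjusted p = 0.0290), with a log2 fold change of -0.67 and a standard error of 0.15.

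These 3 calls were not equally firm. Leaving out H3 or H4 ended that of Nfkb2 (adjusted p = 0.0535 and 0.0521), which held in 18 of 20 alternative settings. The call of Nfkb1 held in 11, and leaving out H1, H3, H4, N2 or N4 ended it, with adjusted p from 0.0612 to 0.0918. That of Relb held in 10, and leaving out H1, H3, H4, N1, N2 or N4 ended it, with adjusted p from 0.0622 to 0.102. Quantile normalization ended the calls of Nfkb1 and Relb but not that of Nfkb2. The 3 log2 fold changes stayed below 0 throughout, between -0.70 and -0.42 for Nfkb1, -0.83 and -0.56 for Nfkb2, and -0.76 and -0.52 for Relb.

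Rel (ENSMUSG00000020275, chromosome 11, 23736847 to 23770970) encodes c-Rel, the activating subunit most abundant in lymphocytes. It measured 313, 354, 274 and 280 FPKM in N1 to N4 and 239, 265, 250 and 219 FPKM in H1 to H4, so the diets were apart, by the gap between H2 and N3. The means were 305 ± 36.6 and 243 ± 19.4 FPKM, and the log2 fold change of -0.32 (standard error 0.14) missed the threshold (limma adjusted p = 0.242). It was -0.15 with quantile normalization and -0.12 on recovered reads.

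Rela (ENSMUSG00000024927, chromosome 19, 5637483 to 5648130) encodes p65, the partner of p50 in the classical dimer. It measured 61.8, 65.5, 57.0 and 67.0 FPKM in N1 to N4 and 66.6, 54.1, 62.5 and 67.7 FPKM in H1 to H4. The diets overlapped almost wholly, with means of 62.8 ± 4.45 and 62.7 ± 6.19 FPKM. The log2 fold change was -0.01 (standard error 0.14, limma adjusted p = 0.990), and its sign turned under several scalings (0.15 with quantile normalization, 0.07 on recovered reads).

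**Figure D3:**
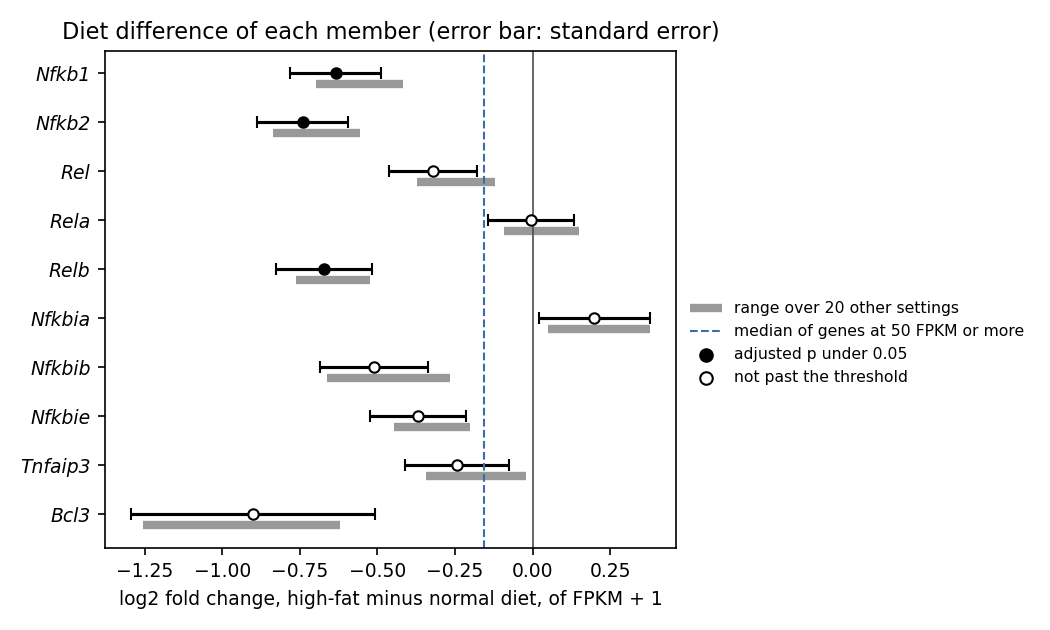
Log2 fold change of each gene, high-fat minus normal diet, with its standard error (black; filled where the adjusted p was under 0.05) and the range of the estimate over 20 other settings (grey bars); the dashed line is the median of the 1859 genes at 50 FPKM or more. Nfkb1, Nfkb2 and Relb are filled, and only the bar of Rela crosses 0.

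The subunit mix could be read within each library, where the scaling of libraries cancels. The multiplier cancels only in the ratio of Relb to Rela, which carried the same one. Summed over the 5 subunits, the level was 1043 ± 110 FPKM (934 to 1166) under normal feeding and 723 ± 24.5 FPKM (702 to 755) under high-fat feeding. Rela made up 6.39, 5.62, 6.11 and 6.08% of that sum in N1 to N4 and 9.44, 7.16, 8.57 and 9.64% in H1 to H4. The Rela share was thus higher in every high-fat library than in any normal-diet one, and H2 came nearest. Per unit of Rela there were 3.87 ± 0.54 units of Nfkb2 on the normal diet and 2.32 ± 0.36 on the high-fat diet. The corresponding ratios were 4.95 ± 0.55 and 3.20 ± 0.36 for Nfkb1, and 1.89 ± 0.14 and 1.20 ± 0.27 for Relb, and none of these 3 ratios overlapped between the diets. The ratio of Rel to Rela, 4.86 ± 0.52 and 3.93 ± 0.72, did overlap.

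**Figure D4:**
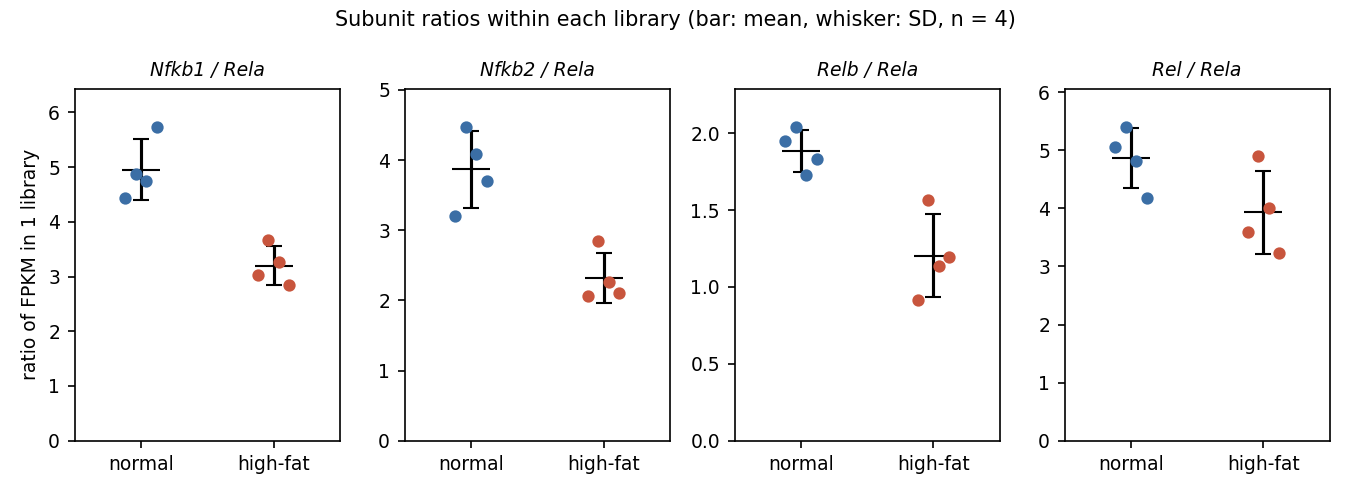
FPKM of Nfkb1, Nfkb2, Relb and Rel divided by that of Rela in the same library (points), by diet, with mean and SD (n = 4). The first 3 ratios separate the diets and the fourth does not.

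The differences in response between genes were tested directly. For each of the 45 pairs, log2(FPKM + 1) of one gene minus the other was compared between diets by an exact two-sided permutation test, whose 70 arrangements allow no p below 0.0286. At that p stood 9 pairs, whose libraries did not overlap. With Benjamini-Hochberg adjustment over the 45 pairs their adjusted p was 0.143, so no pair passed. With 4 libraries a diet a pair can pass only if at least 26 of the 45 stand at the smallest p. The 9 included Rela with Nfkb1 (Nfkb1 minus Rela lower by 0.63 log2 units), with Nfkb2 (0.74), with Relb (0.67) and with Nfkbib (0.51), Nfkbia with Relb (0.87) and with Nfkbib (0.71), Tnfaip3 with Nfkb2 (0.50) and with Relb (0.43), and Nfkb2 with Nfkbie (0.37). In the pairs with Rela, Nfkbia and Tnfaip3 the other gene was the one lower on the high-fat diet, and in the last pair it was Nfkb2. Dividing out the multiplier left 16 pairs without overlap, at a smallest adjusted p of 0.0804, and again none passed.

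Among the inhibitors, Nfkbia (ENSMUSG00000021025, chromosome 12, 55489410 to 55492647) encodes IkB-alpha, the inhibitor that is made anew within each NF-kB response. It was the fifth most abundant of all tested genes. Its levels were 6453, 5199, 4464 and 5345 FPKM in N1 to N4 and 8302, 4629, 5848 and 6178 FPKM in H1 to H4. The highest library was H1 and the lowest N3, and the diets overlapped, with means of 5365 ± 821 and 6239 ± 1528 FPKM (log2 fold change 0.20, standard error 0.18, limma adjusted p = 0.610). The estimate was 0.05 without H1, 0.11 without N3 and 0.33 without H2, and 0.38 with quantile normalization. Of the 10 genes it alone lay above 0, and with the multiplier divided out (estimate 0.13) H1 came to 7007 FPKM. Set against the summed subunits, Nfkbia amounted to 5.19 ± 1.004 on the normal diet (4.46 to 6.67) and 8.68 ± 2.34 on the high-fat diet (6.13 to 11.8). These ranges overlap in the deposited values, but the multiplier does not cancel in this ratio. With it divided out of each gene, the ratio was higher in every high-fat library than in any normal-diet one. The difference in this ratio was not tested.

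Nfkbib (ENSMUSG00000030595, chromosome 7, 28758251 to 28767512) encodes IkB-beta, a slower inhibitor. It measured 310, 369, 210 and 286 FPKM in N1 to N4 and 213, 168, 215 and 216 FPKM in H1 to H4. N3 alone lay among the high-fat libraries, and once the multiplier was divided out the diets no longer overlapped. The means were 294 ± 66.1 and 203 ± 23.3 FPKM, with a log2 fold change of -0.51 (standard error 0.18, limma adjusted p = 0.133), which was -0.34 with quantile normalization and -0.27 on recovered reads. Nfkbie (ENSMUSG00000023947, chromosome 17, 45555703 to 45563169), which encodes IkB-epsilon, measured 130, 195, 132 and 165 FPKM in N1 to N4 and 115, 117, 125 and 117 FPKM in H1 to H4. Every high-fat library was lower, with N2 the highest, but the log2 fold change of -0.37 (standard error 0.15) missed the threshold (limma adjusted p = 0.219), and was -0.20 with quantile normalization.

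Tnfaip3 (ENSMUSG00000019850, chromosome 10, 19000910 to 19015657) encodes A20, a ubiquitin-editing enzyme that shuts off signalling above the IkB kinase. It ranked 18 among tested genes and measured 2677, 3300, 2424 and 3110 FPKM in N1 to N4 and 1883, 2222, 2722 and 2973 FPKM in H1 to H4. H1 and H2 lay below all normal-diet libraries while H3 and H4 lay among them (log2 fold change -0.24, standard error 0.17, limma adjusted p = 0.485). The estimate was -0.13 without H1, -0.03 with quantile normalization and -0.02 on recovered reads. Bcl3 (ENSMUSG00000053175, chromosome 7, 19808462 to 19822770) encodes a nuclear IkB protein that binds p50 and p52 dimers and can activate with them. It was the scarcest of the 10, at 14.7, 10.2, 23.0 and 6.61 FPKM in N1 to N4 and 5.99, 11.6, 3.86 and 5.20 FPKM in H1 to H4, from 87 to 490 recovered reads per library. N4 lay low and H2 high, the diets overlapped, and the estimate of -0.90 was the least precise (standard error 0.39, limma adjusted p = 0.269). No inhibitor, nor Rel, Rela or Bcl3, passed the threshold in any of the 20 alternative settings.

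The order of the deposited levels, per length, shifted in its middle part. On the normal diet Nfkbia stood first and Tnfaip3 next, then came Nfkb1, Rel, Nfkbib and Nfkb2, whose ranges overlapped, then Nfkbie and Relb, also overlapping, then Rela and Bcl3. On the high-fat diet Rel (219 to 265 FPKM) stood clear above Nfkb1 and Nfkbib, and Nfkb2 and Nfkbie followed. Relb (61.0 to 84.6) overlapped Rela (54.1 to 67.7), from which it had been apart on the normal diet. With the multiplier divided out, Rel (223 to 253 FPKM) overlapped Nfkb1 (193 to 233) and Nfkbib (180 to 225) on the high-fat diet, so its place depended on the multiplier. Relb and Rela still overlapped on the high-fat diet only.

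Likeness over the 8 libraries was measured as the root mean square distance of log2(FPKM + 1) after centring each gene on its mean. Among the members the closest to Nfkb2 were Nfkb1 (0.16) and Relb (0.17), Nfkb1 and Relb were 0.19 apart, and Rel was closest to Nfkbie (0.15). Outside the members, the nearest to Nfkb1 were Hilpda (0.06), Impdh2 (0.08) and Arid3c (0.09), to Nfkb2 Dnajb2 (0.09), Spcs3 (0.11) and Rpl7l1 (0.11), and to Relb Nsmf (0.09), Grhl1 (0.10) and Csrp1 (0.11). All tested genes were candidates, so members were not each other's nearest genes: 68 tested genes lay closer to Nfkb1 than Nfkb2 did. All values in this comparison come from the same 8 libraries. The distances used deposited values and so carry the multiplier (0.863 to 1.18), and the order of the nearest genes may depend on it. In the values with the multiplier divided out, Relb was closer to Nfkb2 than Nfkb1 was.

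Both Nfkb1 and Nfkb2 share their locus with another transcript, and the libraries do not mark strand. Nfkbib and Bcl3 are also overlapped from the opposite strand. At Nfkbib these are Ccer2 (718 exonic bases, 0 to 6 recovered reads per library) and Sirt2 (42 exonic bases, 858 to 1574 reads). At Bcl3 they are Gm16175 (600 exonic bases, 0 to 4 reads) and Gm16174, which covers no exon of Bcl3. The 3′ end of Nfkb2 overlaps Psd, a gene on the opposite strand, over 299 exonic bases. Psd itself fell from 35.1 ± 5.38 to 20.3 ± 2.61 FPKM (limma adjusted p = 0.0173, log2 fold change -0.76), a call that ended without H1 or H4 (adjusted p up to 0.0547). It held 521 to 1164 recovered reads per library, against 8602 to 20642 for Nfkb2, and reads of the shared stretch cannot be assigned to either gene. Recovered reads of a gene are fixed only up to a factor common to all libraries. Every count of Nfkb2 was even, so its true counts may be lower. Another opposite-strand transcript at Nfkb2, AC114539.1, spans 642 exonic bases and was not analysed here. Within Nfkb1 lies Gm43430, an unclassified transcript on the same strand that covers 3897 bases and no exon of Nfkb1. It had 821, 779, 809 and 910 recovered reads in N1 to N4 and 1407, 670, 922 and 1058 in H1 to H4. In the limma-voom fit of recovered reads its log2 fold change was 0.36 (standard error 0.13, adjusted p = 0.102), and that of Nfkb1 was -0.42 (adjusted p = 0.00668).

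Beyond the 10 genes, the pathway was followed in 4 lists: other feedback regulators, upstream kinases and adaptors, receptors, and known target genes. Of the 110 genes in the lists together 105 were tested. Of the 20 other IkB proteins and feedback regulators none was called in either direction by limma (median log2 fold change -0.09, 12 below 0). Unadjusted, 2 were higher and 0 lower at p under 0.05, where 7.18% and 11.0% of all tested genes were. On recovered reads 1 was called higher, against 6.25% of genes in that fit. The atypical nuclear IkB protein Nfkbid was higher without overlap, with means of 853 ± 48.4 FPKM (normal) and 1188 ± 170 FPKM (high-fat), but did not pass (log2 fold change 0.47, limma adjusted p = 0.0976, passing in 6 of 20 alternative settings). Its relative Nfkbiz measured 699 ± 38.9 and 654 ± 60.4 FPKM (log2 fold change -0.10, adjusted p = 0.767, with the sign turned by quantile normalization and recovered reads).

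Of 34 tested upstream kinases, adaptors and ligases none was called by limma (median -0.14, 24 below 0). Unadjusted, 1 was higher and 7 were lower at p under 0.05 (7.18% and 11.0% of all tested genes), and on recovered reads 3 were called higher and 0 lower (6.25% and 2.26% of all genes in that fit). Traf1, an adaptor of TNF receptors, measured 615 ± 57.0 and 577 ± 42.7 FPKM (log2 fold change -0.09, turned to 0.12 by quantile normalization). Birc3, the ubiquitin ligase cIAP2, was lower without overlap, at 371 ± 57.5 and 270 ± 44.1 FPKM, but did not pass (log2 fold change -0.46, limma adjusted p = 0.144; -0.29 on recovered reads). Of 18 tested receptors 1 was called lower and 0 higher (median -0.10), against 1.88% and 0.975% of all tested genes. Unadjusted, 5 were lower and 3 higher at p under 0.05 (11.0% and 7.18% of all tested genes). On recovered reads 2 were called lower and 2 higher (2.26% and 6.25% in that fit). The receptor called lower was Tnfrsf9 (4-1BB, a costimulatory receptor), which fell from 77.5 ± 10.7 to 48.7 ± 7.46 FPKM (limma adjusted p = 0.0337, log2 fold change -0.66). Leaving out H1, H3, N1, N3 or N4 ended its call (adjusted p up to 0.127).

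Of the 40 tested target genes 3 were called higher, 2 lower and 35 neither, with a median of -0.12. Over all tested genes 0.975% were called higher and 1.88% lower. At an unadjusted limma p under 0.05, 8 targets were higher and 10 lower, against 7.18% and 11.0% of all tested genes. On recovered reads 9 were called higher and 3 lower, against 6.25% and 2.26% of genes in that fit. Vcam1, an adhesion molecule, rose from 2.02 ± 0.26 to 6.33 ± 2.45 FPKM (limma adjusted p = 0.00768, log2 fold change 1.23) and held in all 20 alternative settings. Il2, the T cell growth factor, rose from 5.32 ± 1.55 to 12.2 ± 2.56 FPKM (1.08, adjusted p = 0.0123), until H4 was left out (0.0521). Lta, or lymphotoxin-alpha, a riser outside the naming rule and chosen after its values were seen, rose from 18.9 ± 2.99 to 29.8 ± 1.58 FPKM (0.64, adjusted p = 0.0325). Leaving out H1, H3, H4, N1 or N4 ended the call of Lta (adjusted p up to 0.0963). The fallers were Tnfrsf9, also a receptor, and Il2ra, the high-affinity receptor chain for interleukin-2. Il2ra fell from 338 ± 33.3 to 205 ± 22.7 FPKM (-0.72, adjusted p = 0.0152), until H3 was left out (0.0713).

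**Figure D5:**
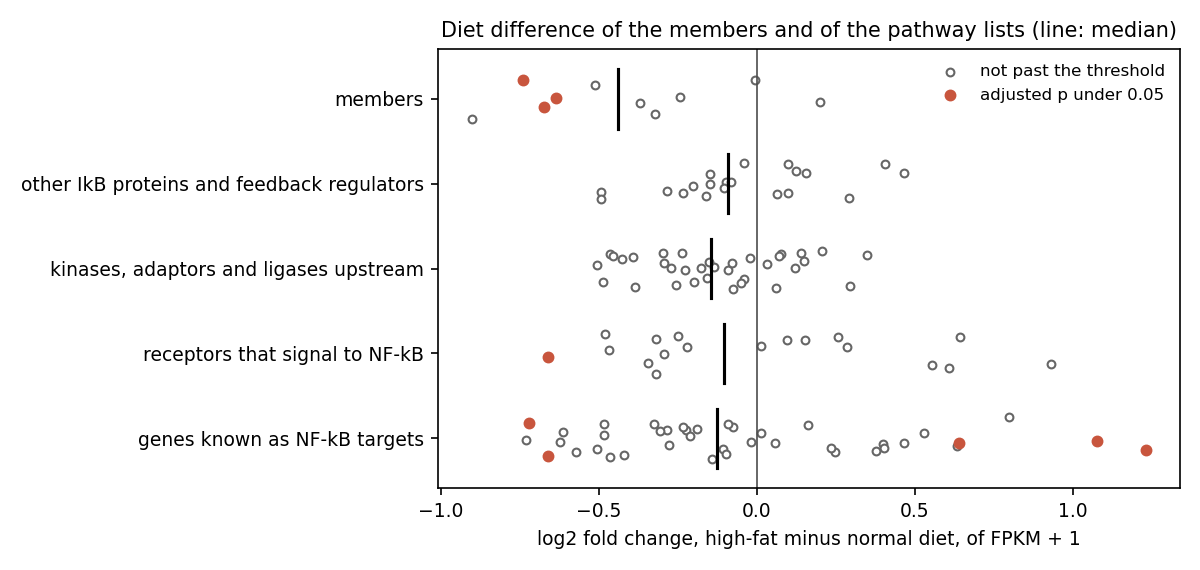
Log2 fold change of every tested gene among the members and in the 4 pathway lists (points; red where the adjusted p was under 0.05), with the median of each as a black line. The members' median of -0.44 lies below those of the 4 lists, which run from -0.14 to -0.09, and targets have red points on both sides of 0.

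Marker lists were read for the make-up of the libraries. The 14 ILC2 markers, all tested, summed to 8996 to 10941 FPKM on the normal and 7308 to 8281 FPKM under high-fat feeding. Called lower were 3, against 1.88% of all tested genes and 4.95% of those at 50 FPKM or more. Called higher were 0, against 0.975% of all tested genes. The 3 were Il5 (log2 fold change -2.06), Il2ra and Gata3 (-0.59), the transcription factor of the lineage. The call of Gata3 ended on leaving out any library but N3 (adjusted p up to 0.113). On recovered reads 5 markers were called lower and 2 higher, against 2.26% and 6.25% of genes in that fit. Il7r was higher without overlap (184 ± 23.0 and 229 ± 30.4 FPKM) but did not pass (limma adjusted p = 0.293). T cell markers were present, with Cd3e at 5.14 ± 4.30 and 11.7 ± 3.41 FPKM on the normal and the high-fat diet, Trbc1 at 392 ± 49.3 and 541 ± 147 FPKM and Trbc2 at 255 ± 33.7 and 350 ± 99.5 FPKM. None of 9 tested was called by limma (4 higher at an unadjusted p under 0.05, where 7.18% of tested genes were, and 4 called higher on recovered reads, where 6.25% were), the median was 0.76, and the list summed to 782 to 1046 FPKM on the normal and 833 to 1611 FPKM on the high-fat diet. Endothelial markers summed to 16.0 to 20.9 and 27.6 to 159 FPKM, with Fabp4 (4.29) and Esam (1.67) called higher of 4 tested. Over all tested genes 0.975% were called higher. Cdh5, the cadherin of those cells, stayed below 1 FPKM but was higher in every high-fat library (0.0241 to 0.315 and 0.333 to 0.416). Plvap (0 to 0.06 and 0.26 to 10.7 FPKM), Cd36, Kdr, Tek and Egfl7 were also higher without overlap, while Pecam1 and Cldn5 overlapped. The call of Fabp4 ended on leaving out any library but H2 (adjusted p up to 0.102), while that of Esam held in all 19 settings that tested it. Macrophage and dendritic cell markers summed to 8.59 to 11.1 and 12.3 to 14.6 FPKM, with C1qa, Mrc1, Itgax and Fcgr1 below 1 FPKM throughout. Of those too low to be tested, C1qb (0 and 0.43 to 1.63 FPKM) and C1qc (0 to 0.24 and 0.44 to 1.29 FPKM) were higher without overlap. Adgre1 was lower without overlap (0.98 to 1.80 and 0.10 to 0.80 FPKM). Sums were 4.84 to 6.21 and 4.21 to 8.04 FPKM for B cells, and 4.58 to 11.8 and 7.38 to 38.7 FPKM for adipocytes and fibroblasts. In the latter list Col3a1 (0.24 to 0.61 and 0.65 to 11.4 FPKM) and Plin1 (0 to 0.04 and 0.07 to 0.88 FPKM) were higher without overlap. Both were too low to be tested, and the other genes of that list overlapped. For mast cells and granulocytes the sums were 1460 to 3352 and 753 to 3601 FPKM. Of 24 tested immediate early and cell dissociation genes, 4 were lower (Hspa8, Egr2, Egr3 and Dnajb1) and 0 higher. Over all tested genes 1.88% were called lower and 0.975% higher. On recovered reads 3 of the list were called lower and 5 higher, against 2.26% and 6.25% of genes in that fit. The call of Hspa8 held with any 1 library left out, while those of Egr2 (without H1, N2 or N3), Egr3 (H1, H4, N2, N3 or N4) and Dnajb1 (H4) ended, at adjusted p up to 0.0732, 0.0912 and 0.0633. No marker was at 0 in all libraries, and the part of any of these lists in the differences above was not tested. H2, the shallowest library with 9005363 recovered reads of a range up to 15752815, and N2 stood at the ends of the first principal component, and without both the calls of Nfkb1, Nfkb2 and Relb held (limma adjusted p = 0.0416, 0.0161 and 0.0249).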

How the data were processed

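Per the labels' protocols, Trizol RNA was made into full-length cDNA with the SMART-Seq HT kit and into libraries with TruePrep, which does not mark strand. HISAT2, Cufflinks and mm10 appear in the submitters' processing notes, with no version, role or annotation given there. Per the file headers the deposited values are FPKM, but 14605 genes (1483 protein coding) hold values below 0 and were left out, and a multiplier of 0.863 to 1.18 that repeats every 10 rows shifts a log2 difference by -0.08 to 0.09. It was kept, and divided out in an alternative. Dividing by it gave whole reads (relative tolerance 1e-06) for 100% of 24107 genes above 0, and for 14.8% of 2000 such genes when their values were moved at random. These summed to 9005363 to 15752815 reads per library, which sets the counting precision. For a gene above 0 the reads are fixed only up to a factor common to all libraries, so counts and sums are approximate.

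Genes with at least 1 FPKM in at least 4 of the 8 libraries were tested by limma 3.58.1 in R 4.3.3 on log2(FPKM + 1), a scale that understates the change of low genes, with diet as the only term, the trend and robust options and a threshold of 0.05 on the adjusted p. The pipeline was tested on simulated data. The values are not counts, so recovered reads (10 or more) entered limma-voom only as an alternative. Named were the 10 members, up to 4 called genes by size of each list or else its 2 most expressed, and the 3 genes nearest each called member, skipping predicted and unnamed genes, a skip added to the rule. The members and lists were chosen with earlier results of these data known. Other alternatives were the pseudocount, filter, normalization, array weights, a replicate block and leaving out libraries. Replicate numbers showed no pairing of the libraries (correlations of deviations -0.07, -0.25, -0.07 and 0.08). Coordinates are from GENCODE M21.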

Additional observations from a re-analysis of the deposited data

Results flagged for a closer look

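In 3 of the 90 groups of 4 libraries looked at (45 genes, 2 diets), 1 library lay far from the other 3, and chance alone gives this in about 1 of 20 groups. Each is given with its gap to the nearest library as a share of the range of the group, above the bound of Dixon's test for 4 values. For Nfkbib, H2 measured 168 FPKM against 213 to 216 FPKM in the other high-fat libraries (0.942). For Nfkbie, H3 measured 125 FPKM against 115 to 117 FPKM (0.837). For Spcs3, a signal peptidase subunit near Nfkb2 in pattern, H4 measured 515 FPKM against 591 to 600 FPKM (0.901). With the multiplier of the deposited values divided out none of the 3 passed the bound: H2 of Nfkbib came to 180 FPKM (208 to 225 in the others, gap 0.64), H3 of Nfkbie to 106 FPKM (115 to 124, gap 0.52) and H4 of Spcs3 to 597 FPKM (506 to 619). For Nfkbie H3 then became the lowest library, and for Spcs3 H4 lay within the others.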

How the results depend on the processing

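Each gene and count was recomputed under 20 alternatives, of which leaving out both H2 and N2 was added after seeing the data, as were all recounts of the pathway lists. Requiring 1 FPKM in all libraries left out Fabp4 and Esam. The count of called genes, 328 (112 higher, 216 lower), became 130 without a filter on low values, 649 with array weights, 571 with the multiplier divided out, 1341 on recovered reads (985 higher, 356 lower) and 129 to 535 with 1 library left out. Quantile normalization gave 226 higher and 204 lower. Called members went from 3 to 1 without the filter, with quantile normalization and without the trend and robust options, and to 0 to 3 with 1 library left out. The pathway count of 5 became 2 without the filter, 3 without the trend and robust options, 9 with array weights, 10 with the multiplier divided out, 18 on recovered reads, 8 without H2 and N2, and 2 to 8 with 1 library left out. Under the replicate block 191 genes and 1 member were called, and the calls of Nfkb1 and Relb ended (limma adjusted p = 0.0874 and 0.0718). No library correlated best with its own number (0 of 8), which shows no pairing by number but cannot exclude one. Pairs of members were retested under 12 alternatives, 10 of them added after seeing the data. None passed, but without H2 and N2 the smallest possible p was 0.1 and elsewhere 0.0286, so this says nothing about stability. The sign of Rela turned with quantile normalization (0.15), equal library medians (0.0045), array weights (0.0255), recovered reads (0.0702) and without H2 and N2 (0.0836), and ranged from -0.0500 to 0.0631 with 1 library left out. Nfkbiz turned to 0.12 with quantile normalization and 0.10 on recovered reads, and Traf1 to 0.12 with quantile normalization. The causes were not tested. Of 200 member estimates under alternatives, 171 kept direction and side of the threshold, 21 lost the call and 8 turned sign. Recovered reads of 87 to 490 limit Bcl3.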
